A study of Mus musculus with 9 samples.

Results

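The late state of SVR cells under propranolol was taken from 6 arrays: 3 of cells given 50 µM propranolol for 24 h and 3 of cells given sham, which the labels place at 0 h. SVR is a mouse angiosarcoma line, made by transforming endothelial cells of pancreatic islets with a viral oncogene and an activated Ras gene, and both groups are of this 1 line, grown to confluence in serum. A probe entered the comparison where it was detected above the negative controls (detection p under 0.05) on all 3 arrays of either group. This held for 11487 of the 25697 probes on the array, which name 7857 of the 16593 genes on it, each represented by its brightest probe. Propranolol blocks beta-adrenergic receptors and was diluted in dimethyl sulfoxide. The study's methods give a higher dose than the labels and 24 h for sham as well, so time in culture and drug cannot be told apart if the labels are right. According to the methods the RNA was pooled over 3 biological replicates before the arrays were run. The p-values therefore rest on how far arrays of a group differ, and this spread may be technical. A further 3 arrays, of cells given 50 µM propranolol for 4 h, shared the normalization and the estimate of the spread in the model, and their levels are given only where named.

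A growing cell spends much of its transcription on the factors that build ribosomes in the nucleolus, on nucleotides, and on the import of proteins into mitochondria and nucleus, and the transcription factor MYC drives many of these genes. Lysosomes are the opposite, degradative side of metabolism: acid hydrolases work in a lumen that the vacuolar proton pump acidifies, autophagosomes deliver cargo to it, and the factors TFEB and TFE3 switch many of these genes on together. Beta-adrenergic receptors signal through cyclic AMP, and blocking them is an established treatment of infantile haemangioma, a benign tumour of endothelial cells.

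The mean signal of the arrays lay between 306.7 and 341.6 intensity units at 24 h and between 306.5 and 387.7 in sham, and 11889 to 12245 probes were detected at 24 h against 11454 to 11901 in sham. Across the 7857 genes, which are not independent replicates, arrays correlated at r = 0.9966 to 0.9971 within 24 h, 0.9958 to 0.9963 within sham and 0.9558 to 0.9579 between the groups. Array 3 at 24 h was the only one on a second BeadChip. Of 36 endothelial markers on the array, 30 passed the detection filter, and 28 of these were detected on all 3 sham arrays. Of markers of other cells, 2 of 13 myeloid, 1 of 12 lymphocyte, 4 of 13 fibroblast and mural, 6 of 9 epithelial and 1 of 10 pancreatic markers on the array passed the detection filter. The summed signal of the tested endothelial markers was 46408 to 53841 intensity units at 24 h and 24136 to 32043 in sham, and that of the 2 myeloid markers was 246 to 282 intensity units at 24 h and 206 to 247 in sham.

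After 24 h of propranolol, 1084 of the 7857 genes tested were higher than in sham (13.8%) and 879 were lower (11.2%). A gene was counted, and is said to have risen or fallen, where its change reached 1.5-fold and its Benjamini-Hochberg adjusted p, from limma's moderated linear model, was below 0.05. A change of 2-fold was reached upward by 439 of them (5.59%) and downward by 205 (2.61%). Most changes were moderate: 645 of the higher and 674 of the lower genes moved by 1.5- to 2-fold. The tail was longer upward, with 77 genes higher and 7 lower by 4-fold or more and 21 genes higher by 8-fold or more. A gene could enter through detection at 24 h alone, and a probe near background can show no fall. The tails are therefore not an even comparison of rises with falls. With detection required on all 6 arrays, 376 genes were higher and 198 lower by 2-fold or more. The median log2 fold change over all genes was -0.01, and 42.8% of genes changed by less than 1.2-fold. All 1963 called genes had 3 arrays at 24 h that did not overlap the 3 sham arrays, which the call itself all but requires. Background correction widens the folds of dim probes. Without it, 614 genes were higher (7.81%) and 452 were lower (5.75%), and values on that scale are given for named genes whose call it ended. Rises made up 55.2% of the called genes. They made up 65.7% when the table normalized by the authors was used and 42.1% when uncorrected signals were divided by each array's 75th percentile, so the balance of rises and falls depends on the scaling.

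**Figure D1:**
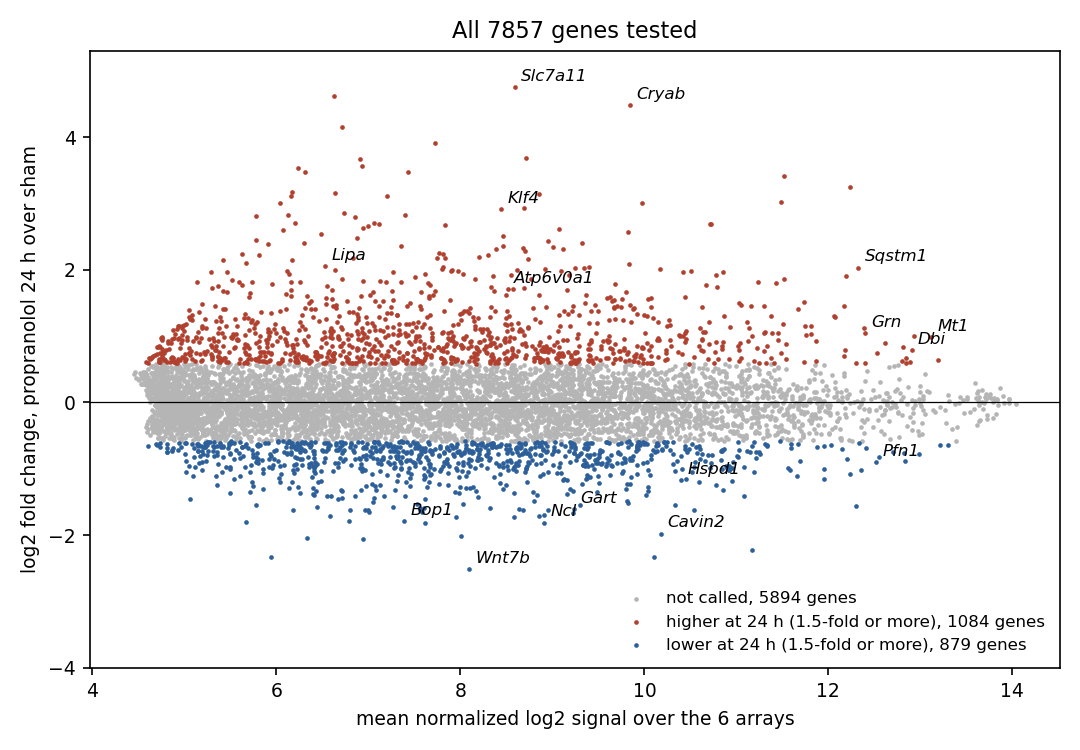
The log2 fold change of propranolol 24 h over sham (vertical axis) against the mean normalized log2 signal over the 6 arrays (horizontal axis) for each of the 7857 genes, 1 point per gene. The 1084 higher genes reach above 4 on the log2 scale and the 879 lower genes reach to about -2.51, with called genes at every brightness.

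Genes that build ribosomes fell as a block. Of 35 tested genes of ribosome biogenesis and RNA polymerase I, 30 fell and 0 rose, where 11.2% of all genes fell. Their median log2 fold change was -0.85, against -0.01 over all genes. Ncl, which encodes the major nucleolar protein nucleolin, had normalized log2 signals of 8.08, 7.96 and 7.97 on the arrays at 24 h and of 9.90, 9.83 and 9.71 on the sham arrays. Its log2 fold change was -1.81 (SE 0.07, limma adjusted p = 2.0e-08), and the arrays at 24 h lay closer to each other than to any sham array. Bop1, which processes the RNA of the large subunit, had log2 signals of 6.45, 6.23 and 6.79 at 24 h and 8.32, 8.10 and 8.42 in sham, a log2 fold change of -1.79 (SE 0.17, limma adjusted p = 8.1e-06). Rrp9, a protein of the U3 particle that starts the processing of the small subunit RNA, stood at 8.22, 8.22 and 7.99 at 24 h and 9.74, 9.85 and 9.69 in sham on the log2 scale, with no overlap. Lyar and Mrto4, a nucleolar protein and an assembly factor of the large subunit, had log2 fold changes of -1.65 and -1.52. The core proteins of the particles that modify ribosomal RNA moved the same way, with log2 fold changes of -1.32 for Nop56, -1.10 for Gar1, -1.02 for the methyltransferase Fbl and -1.02 for Nhp2. Polr1e, a subunit of RNA polymerase I, had -0.98 and Tcof1, which works with this polymerase, had -0.94 (-0.49 without background correction). Outside the list, the polymerase subunit Cd3eap had -1.62, Nle1 and Grwd1, assembly factors of the large subunit, had -1.82 and -1.42, and the pseudouridine synthase Pus7 and the RNA methyltransferase Nsun2 had -1.61 and -1.37 (-0.53 for Nsun2 without background correction). The 5 list members not called were Pes1, Tsr1, Npm1, Nop10 and Rrs1, whose log2 fold changes ran from -0.58 to -0.36. Without background correction 22 members were called lower.

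The genes that make nucleotides fell with them. Of 20 tested genes of nucleotide synthesis, 14 fell and 0 rose, and the median log2 fold change was -0.93. Gart, which carries 3 steps of purine synthesis in 1 protein, had log2 signals of 8.58, 8.27 and 8.44 at 24 h and 10.02, 10.03 and 10.05 in sham, a log2 fold change of -1.60 (SE 0.08, limma adjusted p = 1.1e-07). Ppat, Atic and Adsl of the same pathway had -1.12, -1.07 and -1.17. On the pyrimidine side Cad, which opens the pathway, stood at 7.80, 7.86 and 7.82 at 24 h and 8.96, 9.12 and 9.05 in sham on the log2 scale, and Umps and Ctps, which end it, had log2 fold changes of -1.37 and -1.19. Other probes of Umps gave -0.86 to -0.20. Of this list 6 genes were not called, among them the ribonucleotide reductase subunits Rrm1 (-0.49) and Rrm2 (-0.18) and the purine enzyme Paics (0.18). Enzymes that supply one-carbon units for nucleotides moved alike: 6 of 10 serine, glycine and one-carbon enzymes fell and 0 rose, with log2 fold changes of -1.33 for Shmt1, -0.87 for Mthfd1 and -0.79 for Phgdh, the entry to serine synthesis. The folate carriers Slc19a1 of the cell surface and Slc25a32 of mitochondria had -1.73 and -1.29. Srm, the spermidine synthase, had -1.63, while the polyamine-degrading enzymes Sat1 and Smox had 1.44 and 1.07.

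**Figure D2:**
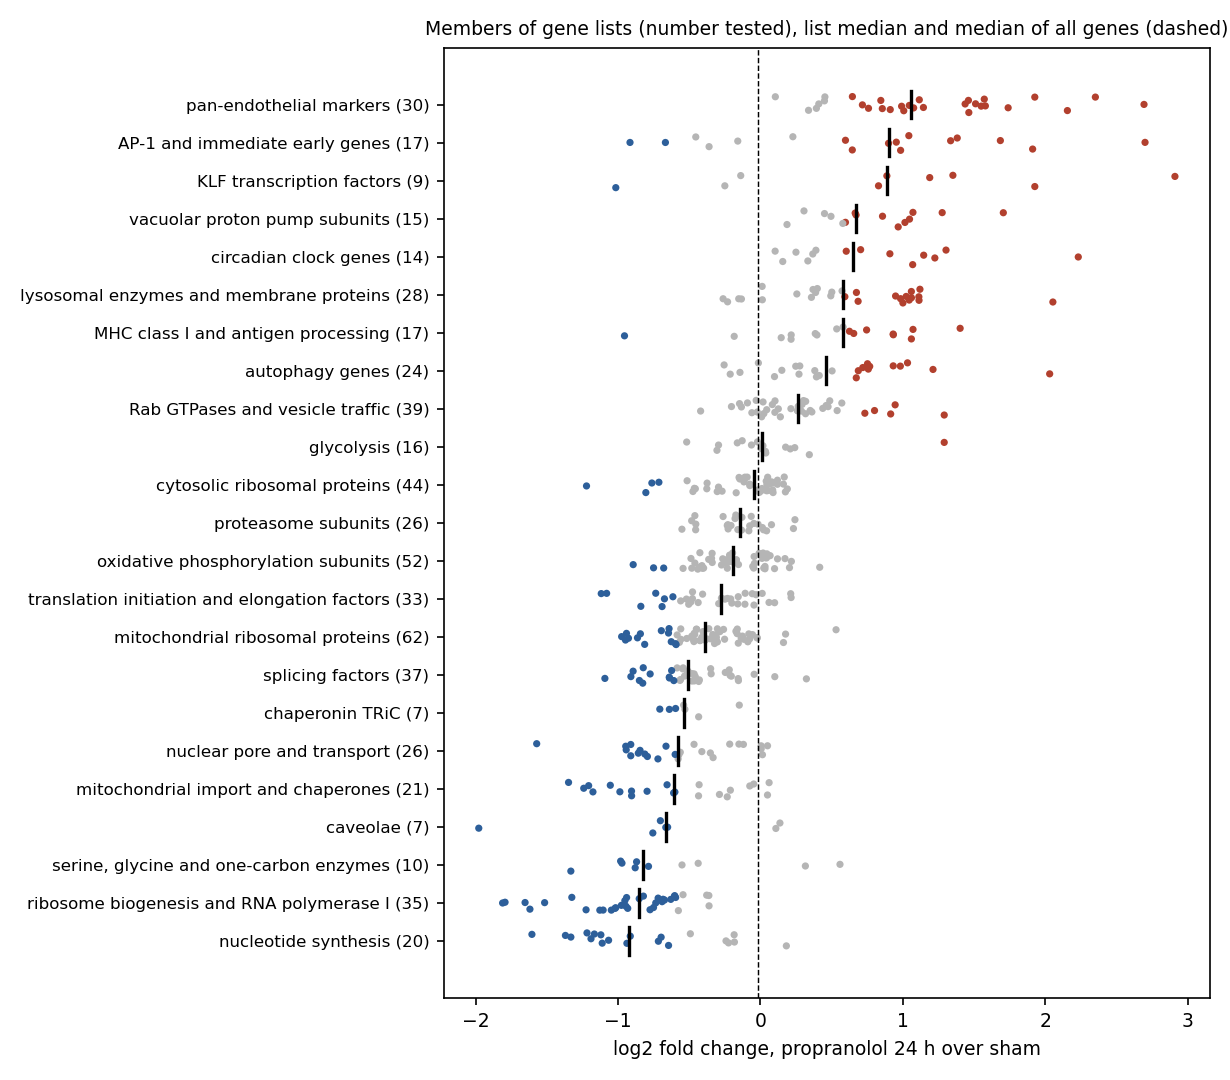
Log2 fold change of propranolol 24 h over sham (horizontal axis) for each tested member of 23 gene lists, red for genes called higher, blue for genes called lower, grey for genes not called, with the list median as a black bar and the median of all genes as a dashed line. Ribosome biogenesis (-0.85) and nucleotide synthesis (-0.93) have the lowest medians shown, the vacuolar proton pump (0.67) and the endothelial markers (1.06) lie to the right, and cytosolic ribosomal proteins (-0.05) and glycolysis (0.01) lie near the dashed line.

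Genes of import into mitochondria and the nucleus and of RNA splicing also had lower members and none that rose. Of 21 genes of mitochondrial import and chaperones, 12 fell and 0 rose (median -0.61). Hspd1 and Hspe1, the partner chaperonins of the mitochondrial matrix, had log2 fold changes of -1.18 and -1.24. For Hspd1 the log2 signals were 9.76, 9.81 and 9.86 at 24 h and 11.02, 11.05 and 10.89 in sham, and its second probe gave a log2 fold change of -2.04. The prohibitin Phb2 averaged 9.99 ± 0.06 at 24 h and 11.04 ± 0.06 in sham on the log2 scale (SD, n = 3 each), and the small import chaperones Timm8a1, Timm10 and Timm9 had log2 fold changes of -1.35, -0.99 and -0.90. Of 26 genes of nuclear pores and transport, 12 fell (7 without background correction) and 0 rose. The largest was Rcc1, which charges the transport GTPase Ran, with log2 signals of 6.58, 6.45 and 6.40 at 24 h and 8.14, 8.05 and 7.96 in sham and a log2 fold change of -1.57 (SE 0.08, limma adjusted p = 1.2e-07). The import receptors Ipo4 and Ipo5 had -0.94 and -0.91, and Kpnb1 had -0.84 (-0.47 without background correction). Of 37 splicing factors 11 fell and 0 rose, led by Hnrnpa1 at -1.09. Their median was -0.51, near the threshold, so the count moved to 25 with arrays centred on their medians and to 22 with scaling on the 75th percentile.

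Other parts of the protein-making apparatus moved less than ribosome biogenesis. Of 44 cytosolic ribosomal proteins, the products that the factors above assemble, 4 were called lower and 0 higher, and their median was -0.05. That median depends on the scaling and was -0.25 with arrays centred on their medians. The exceptions were Rplp0 (-1.22, and -0.45 at its other probe), Rpl30 (-0.80), Rpl22 (-0.76) and Rpl21 (-0.71, and -0.37 without background correction). Probes of ribosomal proteins can also bind the transcripts of their many pseudogenes. None of 26 proteasome subunits was called, with log2 fold changes from -0.55 for Psmc5 to 0.24 for Psmd11. The list holds no interferon-induced subunits such as Psmb10, which is described below with the interferon genes. Of the respiratory chain, 3 of 52 subunits of oxidative phosphorylation were lower (median -0.19). Mitochondrial ribosomal proteins lay between, with 13 of 62 called lower and a median of -0.39. These counts are sensitive to scaling: with scaling on the 75th percentile 9 cytosolic and 22 mitochondrial ribosomal proteins, 8 subunits of oxidative phosphorylation and 3 proteasome subunits were called lower, and with arrays centred on their medians 7, 20, 6 and 3. Of translation factors 7 of 33 were lower, among them Eif5a, the factor that carries hypusine, at -1.08. The folding chamber TRiC had 3 of 7 subunits lower with a median of -0.54, but this count ran from 1, without sham array 2, without array 2 at 24 h or without background correction, to 5, with arrays centred on their medians. Glycolysis showed 1 gene higher, Pfkfb4 (1.29), and 0 lower of 16.

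Lysosomal genes rose. Of 28 lysosomal enzymes and membrane proteins, 14 rose and 0 fell, where 13.8% of all genes rose. The median log2 fold change was 0.58, and 14 were called without background correction as well. Lipa, the acid lipase that frees cholesterol and fatty acids from lipoproteins, had log2 signals of 7.44, 7.67 and 7.56 at 24 h and 5.28, 5.57 and 5.66 in sham, a log2 fold change of 2.05 (SE 0.14, limma adjusted p = 6.6e-07). Ctsa, a carboxypeptidase that protects other hydrolases, stood at 9.29, 9.39 and 9.19 at 24 h and 8.01, 8.40 and 8.13 in sham on the log2 scale. Mcoln1, the calcium channel of the lysosomal membrane, stood at 8.09, 8.60 and 8.32 at 24 h and 7.24, 7.25 and 7.33 in sham, so that its arrays at 24 h spread more widely than the sham arrays without reaching them. Glb1, Hexa and Neu1, which trim sugars from glycolipids and glycoproteins, had log2 fold changes of 1.11, 1.00 and 1.06, and Psap, Grn and Asah1, which serve lipid breakdown and lysosomal upkeep, had 1.12, 1.05 and 1.02. The other probe of Asah1 gave 0.43. The cystine exporter of lysosomes, Ctns, which is not on the list, had 1.93. The protease genes were split: Ctsb and Tpp1 had 0.67 and 0.98, while Ctsd and Ctsl, which were not called, had -0.15 and -0.26.

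The proton pump that acidifies the lysosome rose alongside, with 10 of 15 subunits higher and 0 lower (median 0.67). Atp6v0a1 and Atp6v0d1, of the sector in the membrane, had log2 signals of 9.38, 9.33 and 9.40 and of 10.80, 10.80 and 10.58 at 24 h, against 7.70, 7.60 and 7.69 and 9.30, 9.54 and 9.50 in sham. The subunits of the outer sector Atp6v1d, Atp6v1b2 and Atp6v1f had log2 fold changes of 1.07, 0.97 and 0.86. Among 24 autophagy genes 11 rose and 0 fell, but 4 rose without background correction and 2 with scaling on the 75th percentile. Of the 24, 21 were detected on all 3 sham arrays. The cargo receptor Sqstm1 was bright and far apart, with log2 signals of 13.33, 13.36 and 13.33 at 24 h and 11.28, 11.30 and 11.35 in sham and a log2 fold change of 2.03. The kinase that starts autophagy, Ulk1, stood at 7.19, 7.41 and 7.19 at 24 h and 5.98, 6.12 and 6.06 in sham. The ATG8 family members Gabarap and Gabarapl1 had log2 fold changes of 0.77 and 0.75, while Map1lc3b, which was not called, had 0.39. Of 39 Rab GTPases and vesicle traffic genes 5 rose and 0 fell, led by Rab3d at 1.29, a share close to that of all genes that rose (13.8%).

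**Figure D3:**
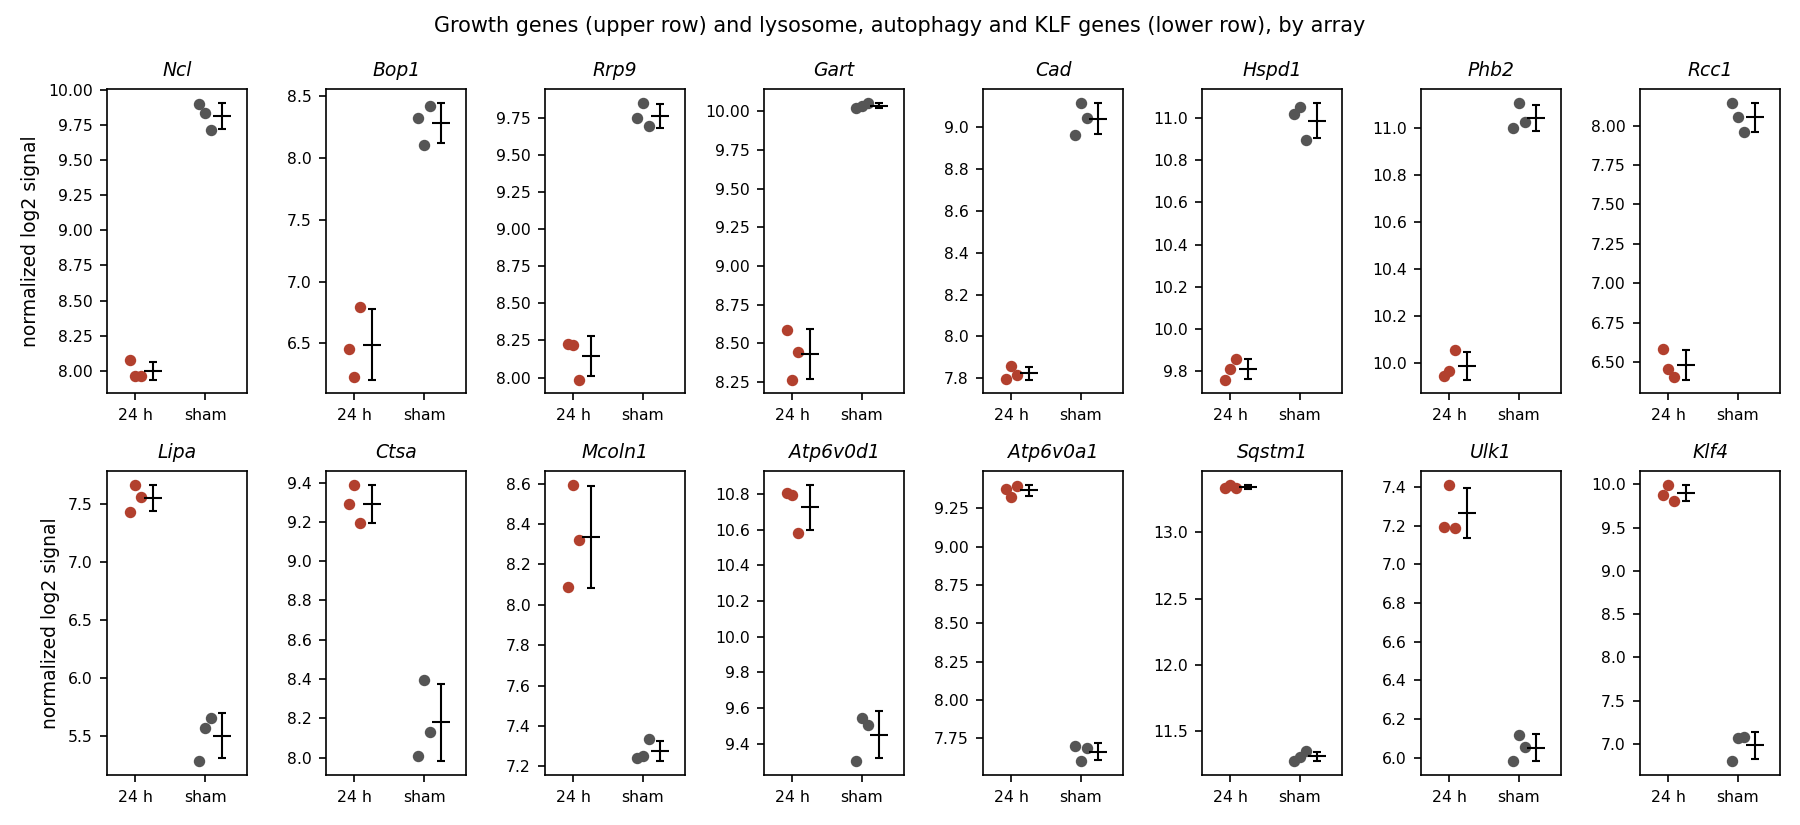
Normalized log2 signal of 16 genes on each of the 3 arrays at 24 h (red, left) and the 3 sham arrays (grey, right), with mean and SD beside the points and a scale of its own for each gene. In all 16 panels the arrays of the groups lie apart, lower at 24 h in the upper row of growth genes and higher at 24 h in the lower row.

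Promoter sequences were read for these genes because the lysosomal genes are known to share a short binding motif. RefSeq windows of GRCm38.p6, from 250 bases before to 50 bases after a start, were at hand for 6454 of the 7857 genes, and a gene counted as a holder if any of its windows had the letters on either strand. The letters TCACGTGA, bound by TFEB and TFE3, were in the windows of 5 of 25 lysosomal genes (20%) and 3 of 10 proton pump genes (30%), against 2.34% of all genes tested. Of these 8 holders, 4 were called higher, where 14 of all 28 lysosomal genes and 10 of all 15 pump subunits were. The shorter core CACGTG, which lies within it and which MYC also binds, was in 40% of both lists, in 17.2% of the ribosome biogenesis list and in 12.1% of all genes tested. Windows are shown for the called holders with the larger folds, with TCACGTGA in capitals. The Atp6v0d1 window lies on the minus strand of chr8:105566015-105566314, the Ctsa window on the plus strand of chr2:164833523-164833822 and the Mcoln1 window on the plus strand of chr8:3500269-3500568.
Atp6v0d1: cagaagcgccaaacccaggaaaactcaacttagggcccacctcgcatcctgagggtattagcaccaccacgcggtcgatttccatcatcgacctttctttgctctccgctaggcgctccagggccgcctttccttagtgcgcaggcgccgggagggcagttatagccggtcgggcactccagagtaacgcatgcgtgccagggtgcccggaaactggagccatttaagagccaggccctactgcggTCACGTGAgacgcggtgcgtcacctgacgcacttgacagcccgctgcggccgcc
Ctsa: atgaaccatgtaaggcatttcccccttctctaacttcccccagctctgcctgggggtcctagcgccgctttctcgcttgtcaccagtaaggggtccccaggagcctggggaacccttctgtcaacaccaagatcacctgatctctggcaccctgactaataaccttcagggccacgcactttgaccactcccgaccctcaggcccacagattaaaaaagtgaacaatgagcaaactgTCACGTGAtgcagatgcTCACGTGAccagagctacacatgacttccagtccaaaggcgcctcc
Mcoln1: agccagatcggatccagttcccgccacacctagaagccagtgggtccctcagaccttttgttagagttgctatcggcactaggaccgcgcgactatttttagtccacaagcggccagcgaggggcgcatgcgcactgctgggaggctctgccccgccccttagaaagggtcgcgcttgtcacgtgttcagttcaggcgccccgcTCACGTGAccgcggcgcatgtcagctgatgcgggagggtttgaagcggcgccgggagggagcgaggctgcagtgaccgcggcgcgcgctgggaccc
The Ctsa window holds the letters 2 times, and the others hold them once. In all, 7 motifs were searched, and those not described here are given below. A match of letters is a description and not a bound site.

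The response to a lack of amino acids was split. Of 24 tested targets of ATF4, the transcription factor of that response, 12 rose and 3 fell. The shares over all genes were 13.8% and 11.2%. Those that rose included the cystine importer Slc7a11, with log2 signals of 10.97, 10.97 and 10.95 at 24 h and 6.20, 6.30 and 6.14 in sham and the largest log2 fold change among genes detected on all 6 arrays at 4.75, and the glycine transporter Slc6a9 at 2.32. The stress factors Ddit3, Trib3 and Nupr1 had 1.34, 0.82 and 1.59. Those that fell were the serine synthesis enzymes Psat1 (-0.88) and Phgdh and the leucine transporter Slc7a5 (-1.02). Asns, the asparagine synthetase, was not called, at 0.29, and neither was Atf4 itself, at 0.42. The letters TGATGNAA of the amino acid response were in the windows of 7 of 22 genes of this list (31.8%), against 2.93% of all genes tested. Of these 7 genes 5 rose, where 12 of all 24 list members rose. The Slc7a11 window, on the minus strand of chr3:50443564-50443863, holds the letters 2 times, once on each strand, and is shown with both in capitals.
Slc7a11: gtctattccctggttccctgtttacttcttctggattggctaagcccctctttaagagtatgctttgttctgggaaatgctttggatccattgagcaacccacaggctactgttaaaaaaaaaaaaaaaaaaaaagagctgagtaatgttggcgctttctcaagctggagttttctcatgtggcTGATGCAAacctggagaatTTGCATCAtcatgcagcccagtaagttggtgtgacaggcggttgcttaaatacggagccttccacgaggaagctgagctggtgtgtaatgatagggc
The chaperones that were called went both ways. Among 18 cytosolic and related heat shock proteins 3 rose, namely Cryab (4.48), Hspb1 (1.71) and their partner Bag3 (0.62), and 5 fell, namely the mitochondrial pair Hspd1 and Hspe1, Hspa4 (-0.87, and -0.39 without background correction) and the co-chaperones Ahsa1 (-0.85) and Fkbp4 (-0.73). The 3 that rose are a share close to that of all genes that rose (13.8%), while 11.2% of all genes fell. Hspd1 and Hspe1 are also counted above with mitochondrial import. The chaperones of the endoplasmic reticulum Hspa5 and Hsp90b1 were not called, at 0.18 and 0.11. Herpud1 and Sel1l, which clear misfolded proteins from the endoplasmic reticulum, had 1.22 and 1.07, with 0.31 at the other probe of Sel1l.

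Cholesterol synthesis genes rose, as did many genes of fatty acid synthesis and of detoxification, while other lipid lists had fewer called members. In cholesterol synthesis 14 of 15 genes rose (median 2.18), and Hmgcs1, the first committed enzyme, stood at 13.19, 13.20 and 13.28 at 24 h and 9.86, 9.73 and 9.85 in sham on the log2 scale. Stard4, which carries cholesterol between membranes, had a log2 fold change of 1.87, and Pltp and the bile acid enzyme Hsd3b7 had 1.58 and 1.76. Fatty acid synthesis had 11 of 17 genes higher. The probe of Fasn, the synthase itself, was detected on no sham array, so that the size of its change could not be measured. Of 20 genes of phospholipid and triglyceride synthesis 3 rose and 2 fell, with a median of -0.02. These shares are close to those of all genes, of which 13.8% rose and 11.2% fell. The phosphatidate phosphatase Lpin1 and the ethanolamine pathway enzyme Pcyt2 had 3.15 and 1.99, and the acyltransferases Agpat2 and Agpat5 had -0.75 (-0.52 without background correction) and -0.63 (-0.33). Among 22 targets of NRF2, the factor of the antioxidant response, 14 rose and 0 fell. The antioxidant response element was in the promoter windows of 6 of 20 of these targets (30%), against 16.7% of all genes tested. That share is not particular to NRF2 targets, since the element was in 32% of the lysosomal list and 31.8% of the ATF4 list. The core of the sterol response element was in 1 of 13 cholesterol synthesis genes (7.69%), against 1.24%. On all 3 sham arrays 13 of the 15 cholesterol synthesis genes and 19 of the 22 NRF2 targets were detected. Of 19 iron and heme genes 4 rose and 2 fell, with a median of 0.18. Hmox1, Blvrb and Alas1 of heme metabolism had 3.03, 1.78 and 1.42, while the ferritin chain Fth1 was not called, at 0.06. Of 16 genes of sphingolipid metabolism 4 rose, or 1, Asah1, without background correction. The other probe of Asah1 gave 0.43.

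Cell division genes declined in part. In the list of G2/M and mitosis 13 of 34 members were lower and 0 higher (median -0.50), or 8 lower without background correction. Melk and Plk1, mitotic kinases, had log2 fold changes of -1.41 and -1.02, and Cdca8 and Bub1b, of the spindle checkpoint machinery, had -0.99 and -0.99. Other probes of Melk gave -0.83 to -0.53. In RNA of a whole culture, fewer cells in a phase and less RNA per cell cannot be told apart. Of 40 genes of DNA replication 9 fell and 0 rose, or 4 fell with the authors' normalized table, and of the replicative helicase only Mcm7 passed (-0.64, and -0.50 without background correction), with Mcm2 at 0.15 and Mcm6 at 0.50. The cyclins Ccnd1 and Ccnd2 had -0.74 and -0.91, and the kinase Cdk6 had -0.77 (-0.31 without background correction). The inhibitor Cdkn1a had 0.87, and Cdkn1b had 0.87 (0.31 without background correction). Rb1, which holds back entry into S phase, had 1.29. Myc fell by a log2 fold change of -0.59 (-0.31 without background correction), a call that also ended when sham array 2, sham array 3 or array 2 at 24 h was left out, and Mnt, which opposes it, had 1.06 (0.36). The other probe of Mnt gave 0.39. The histone list was mixed, with 3 of 15 members higher, among them the linker histone H1f2 (1.46), and 3 lower. Nearly identical H2A genes share probe sequence, and the probes assigned to H2ac10, H2ac12 and H2ac15 had -1.02, -0.88 and -0.78, which are not independent values.

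Most tested KLF factors and immediate early genes rose. Of 9 KLF factors 6 rose and 1 fell. Klf4 had log2 signals of 9.88, 10.00 and 9.81 at 24 h and 6.80, 7.07 and 7.08 in sham and a log2 fold change of 2.91 (SE 0.09, limma adjusted p = 4.1e-09), Klf2 had 1.19, Klf9 had 1.93 and Klf5, which promotes growth, had -1.02. Of 17 AP-1 and immediate early genes 11 rose and 2 fell, led by Atf3, Ier3 and Fos at 2.70, 1.91 and 1.69, while Egr1, which was not called, had -0.36 and Fosl1 had -0.92. Among 14 clock genes 8 rose and 0 fell, or 4 rose without background correction, with Bhlhe40, a repressor of the clock, at 2.23, Dbp, an output factor, at 1.07 and Per1 at 0.91 (0.47). The core activators Arntl and Clock were not called, at 0.25 and 0.33. Of the 14 clock genes, 11 were detected on all 3 sham arrays.

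Endothelial markers rose, with 24 of 30 higher and 0 lower (median 1.06). The adhesion genes Pecam1, Cdh5 and Esam had log2 fold changes of 1.46, 1.44 and 1.51, the endothelial factors Sox18, Lmo2 and Sox7 had 2.35, 1.93 and 1.58, and Plvap, of the diaphragms of capillary pores, had 1.74. Of 14 genes of the angiopoietin, VEGF and PDGF systems 8 rose and 1 fell. The ligand Pgf and its receptor Flt1 had 1.42 and 1.55, Pdgfb had 2.93 and Vegfd had -0.88 (-0.31 without background correction). Cxcr4, a receptor for Cxcl12, had 2.45, while Cxcl12 was not called, at -0.06. Guidance genes went both ways, with 6 of 22 higher and 5 lower (1 without background correction): the semaphorin receptor Plxnd1 and its family's ligand Sema3f had 1.5 and 1.49, and Sema7a had -1.71. Caveolae, membrane pits that abound in endothelium, had 5 of 7 genes lower and 0 higher. Cavin2 had log2 signals of 9.19, 9.17 and 9.23 at 24 h and 11.22, 11.24 and 11.06 in sham and a log2 fold change of -1.98, while Cav1 was at -0.65 (-0.58) and Cavin1 at -0.76 (-0.54 without background correction, where 1 gene of the list was called). Without sham array 2, 3 caveolar genes were called.

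Matrix and cytoskeleton genes were divided. Several basement membrane genes rose, with log2 fold changes of 1.43 for Nid1, 1.34 for Lamb2 and 0.95 for Lamc1, while Thbs1, an inhibitor of angiogenesis, and the elastin cross-linker Loxl1 had -1.54 and -1.10 (-0.45 for Loxl1 without background correction). In all, 8 of 21 collagens, laminins and matrix proteins rose and 3 fell, or 5 and 2 without background correction and 3 and 1 with the authors' normalized table. The integrin chains Itga5 and Itgb5 had 1.38 and 1.41. Itgb1, the chain that pairs with Itga5, had -0.74, or -0.54 on uncorrected signals, and -0.30 at its other probe. In the actin cytoskeleton 8 of 33 genes fell, among them Cfl1 (-1.10) and Pfn1 (-0.90), which turn actin filaments over, and 1 rose. Without background correction 5 fell, and 3 with the authors' normalized table. Among 15 factors and targets of YAP, a coactivator that responds to cell tension, 4 fell and 1 rose, with a median of -0.23. Those that fell were Ankrd1 at -2.22, Axl at -2.02, Ccn1 at -1.54 and Ccn2 at -0.99, the one that rose was the coactivator Wwtr1 at 0.68, and Yap1 itself was not called, at -0.20. The small GTPase Rnd3 had -1.26 (-0.54) and Rhob had 0.91, and the exchange factor Arhgef3 had 2.44. The activin antagonist Fst and the activin chain Inhba were both lower, at -1.13 and -0.92, while Smad6, Id3 and Id1, which BMP signals induce, had 2.36, 1.14 and 0.92.

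Interferon-stimulated genes were higher in 23 of 32 cases and lower in 1, the proteasome subunit Psmb10 at -0.95. Many were dim in sham, and of the 21 members detected on all 6 arrays 14 rose. In antigen presentation 8 of 17 genes were higher, or 3 without background correction. Of the 17, 12 were detected on all 3 sham arrays. Among the 8 were B2m, the light chain of class I molecules, at 0.75 and H2-T23 at 1.40. The peptide transporters Tap1 and Tap2 had 0.93 (0.31 without background correction) and 1.07. The core of interferon response elements is GAAA, any 2 bases and GAAA again. It was in the windows of 14 of 27 genes of the interferon list (51.9%), against 3.53% of all genes tested. Of these 14 genes 9 rose, where 23 of all 32 list members rose. The window of Rsad2, an antiviral enzyme with log2 signals of 10.54, 10.56 and 10.57 at 24 h and 6.84, 6.88 and 6.89 in sham, lies on the minus strand of chr12:26456403-26456702 and holds the core on its reverse strand, in capitals.
Rsad2: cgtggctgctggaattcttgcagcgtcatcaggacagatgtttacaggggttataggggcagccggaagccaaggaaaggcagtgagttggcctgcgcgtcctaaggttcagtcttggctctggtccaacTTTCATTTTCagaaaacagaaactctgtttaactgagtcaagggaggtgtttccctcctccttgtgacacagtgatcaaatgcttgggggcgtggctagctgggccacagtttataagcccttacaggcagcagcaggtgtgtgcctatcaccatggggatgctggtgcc
Of 15 chemokines and cytokines 8 rose and 1 fell: Il33, an alarm cytokine, had -1.80, and Il15, Il7 and Kitl, growth factors of blood cells, had 1.42, 2.60 and 1.52. Il7 is not on that list. Of the 2 tested of 13 myeloid markers Cd14 was higher, at 0.65 (0.31 without background correction), and the part of other cells in these results was not tested.

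**Figure D4:**
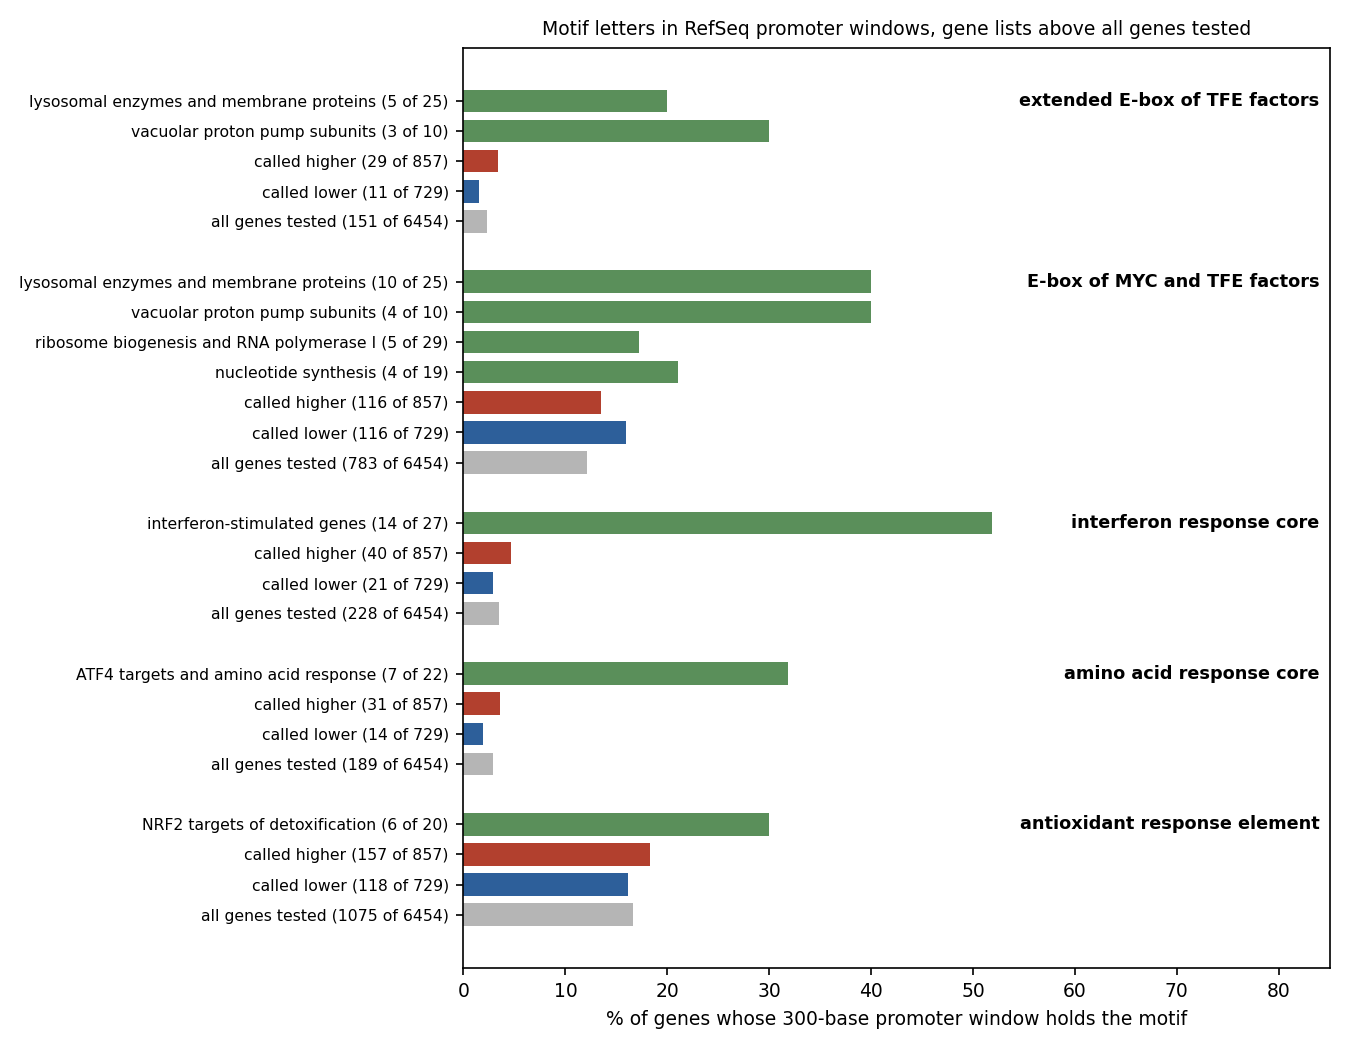
Percentage of genes whose RefSeq promoter window of 300 bases holds a motif (horizontal axis, from 0), for gene lists (green), for genes called higher (red) and lower (blue) and for all genes tested (grey), with holders and genes with a window in parentheses. The interferon list (51.9% against 3.53% of all genes) and the lysosomal and proton pump lists stand above the grey bars, while the called genes as a whole lie near them.

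Genes of cyclic AMP signalling were measured as well. Among 23 tested genes of G protein coupling, adenylyl cyclases and phosphodiesterases 6 rose and 0 fell, or 3 rose without background correction. They were the phosphodiesterase Pde1b (2.38), the cyclase Adcy4 (1.81), the receptor kinase Grk5 (1.2), the cAMP-responsive factor Crem (1.28, and 0.48 without background correction), Pde2a (0.66, 0.23) and Adcy6 (0.64, 0.47). The stimulatory G protein gene Gnas and the kinase subunits Prkaca and Prkar1a were not called, at 0.09, -0.13 and 0.10. Of the 23 genes, 19 were detected on all 3 sham arrays. Other probes of Crem gave 0.42 to 1.01. The palindrome bound by the cAMP-responsive factor CREB was in the promoter windows of 3.73% of genes that rose and 3.56% of all genes tested.

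Genes of cell death moved in both directions. Of 17 BCL2 family genes 3 rose and 1 fell, or 1 and 0 without background correction. Of 22 genes of caspases, death receptors and the apoptosome 4 rose and 4 fell, with a median of -0.05. Of all genes 13.8% rose and 11.2% fell. In the BCL2 family the death-promoting Bcl2l11 (1.91), Bbc3 (0.70, with 0.57 without background correction and -0.07 at its other probe) and Bmf (0.61, 0.19) were higher. The protective Bcl2 was lower (-0.88, -0.52). The death receptors Fas and Tnfrsf10b had 1.82 and 1.12, and Casp4, an inflammatory caspase, had 3.56 at its brightest probe and 0.84 at the other. The mitochondrial death factors Htra2 and Aifm1 were lower, at -0.99 and -0.82 (-0.57 for Aifm1 without background correction), and the executioner Casp6, which was not called, was at -0.06.

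Among the genes that moved by 1.5- to 2-fold, the smallest adjusted p-values upward belonged to a mixed group. Mt1, a metal-binding protein, had a log2 fold change of 0.98 (SE 0.06, limma adjusted p = 5.1e-07), the tetraspanin Cd82 had 0.97, the kinase Prkd2 had 0.98, the calcium channel Itpr2 had 0.98 and Impact, a regulator of translation, had 0.88. Downward, Nat10, an acetyltransferase of ribosomal RNA, had -0.97 (-0.37 without background correction), Gemin4, which assembles splicing particles, had -0.96, Dph2, which modifies the elongation factor of translation, had -0.94 and Anp32a, a nuclear acidic protein, had -0.91 with other probes at -0.42 to -0.25. Pkia, an inhibitor of the cAMP-dependent kinase, had -0.96. With genes split by brightness into 4 equal bins, 228 were higher and 123 lower in the dimmest bin, 311 and 261 in the next, 297 and 268 in the one after and 248 and 227 in the brightest. A dim gene could enter through detection in 1 group alone, so these counts are no measure of how rises compare with falls among dim genes. The brightest genes that rose included Mt1, the protease inhibitor Cstb (0.64), the acyl-CoA carrier Dbi (0.79, with other probes at -0.29 to 0.82), the endothelial secreted protein Egfl7 (1.01), the prion protein Prnp (0.90) and Grn. Other probes of Egfl7 gave 0.33 to 1.25. The brightest that fell included Pfn1, Timp1, an inhibitor of matrix proteases (-0.83), Ccnd1 and Nme1, a nucleotide kinase (-0.64).

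Some genes were detected in only 1 group. In 178 genes all 3 arrays at 24 h and none of the sham arrays detected the probe, and 79 of these were called higher. In 36 genes it was the reverse, and 8 of these were called lower. A fold is then given as a lower bound against the dimmest detected probes of each sham array, on the background-corrected scale only. Slc40a1, the iron exporter, was at least 19.3-fold higher, Clec4d, a lectin receptor, at least 10.1-fold, Trp53inp2, which promotes autophagy, at least 8.27-fold, Cbfa2t3, a co-repressor of blood and endothelial genes, at least 5.71-fold, Stat2, a subunit of the interferon-activated complex, at least 4.21-fold and Lcn2, an iron-siderophore carrier, at least 3.05-fold. Without background correction the log2 fold changes were smaller than these bounds. They were 2.67 for Slc40a1, 1.84 for Clec4d, 1.55 for Trp53inp2, 1.27 for Cbfa2t3, 0.93 for Stat2 and 0.78 for Lcn2. On the side of loss the placental gene Plac1 was at least 2.28-fold lower. The bounds of the other 7 losses were lower than this, and without background correction Plac1 itself had a log2 fold change of -0.53. Cytokeratins were also lower but stayed detected, with log2 fold changes of -1.41 for Krt18 and -1.59 for Krt19, while Krt8, their partner, was at -0.19 and was not called. Of all 6 tested epithelial markers 2 fell and 0 rose, with a summed signal of 740.4 to 839.5 intensity units at 24 h and 1011 to 1306 in sham.

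The 4 h arrays place these changes in time. Against 4 h, 843 genes were higher at 24 h (10.7%) and 587 were lower (7.47%). Of the 1084 genes higher than sham at 24 h, 710 were also higher than at 4 h and 129 had been called higher at 4 h already. Of the 879 lower genes, 465 were also lower than at 4 h and 97 had been called lower at 4 h. The share of all genes called at 4 h against sham is not given here, so the 129 and 97 cannot be set against it. Both time points are set against the same sham arrays, so only the direct comparison of 24 h with 4 h is a test of the difference. The 710 and 465 genes were chosen with the same 24 h arrays that enter that comparison, so these counts are not independent of the choice. Over sham, the median log2 fold change of ribosome biogenesis genes was -0.34 at 4 h and -0.85 at 24 h, that of nucleotide synthesis was -0.15 and -0.93, that of lysosomal genes was 0.14 and 0.58 and that of endothelial markers was -0.10 and 1.06. The log2 difference of 24 h minus 4 h was -1.42 for Ncl and 1.58 for Lipa, both past the same thresholds. In 14 genes the call turned, with a lower level than sham at 4 h and a higher one at 24 h, and in 0 genes was it the reverse. Pdgfb led these, with log2 fold changes over sham of -0.80 at 4 h and 2.93 at 24 h, and the G protein regulator Rgs16 had -1.31 and 0.59 (0.49 for 24 h over sham without background correction).

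**Figure D5:**
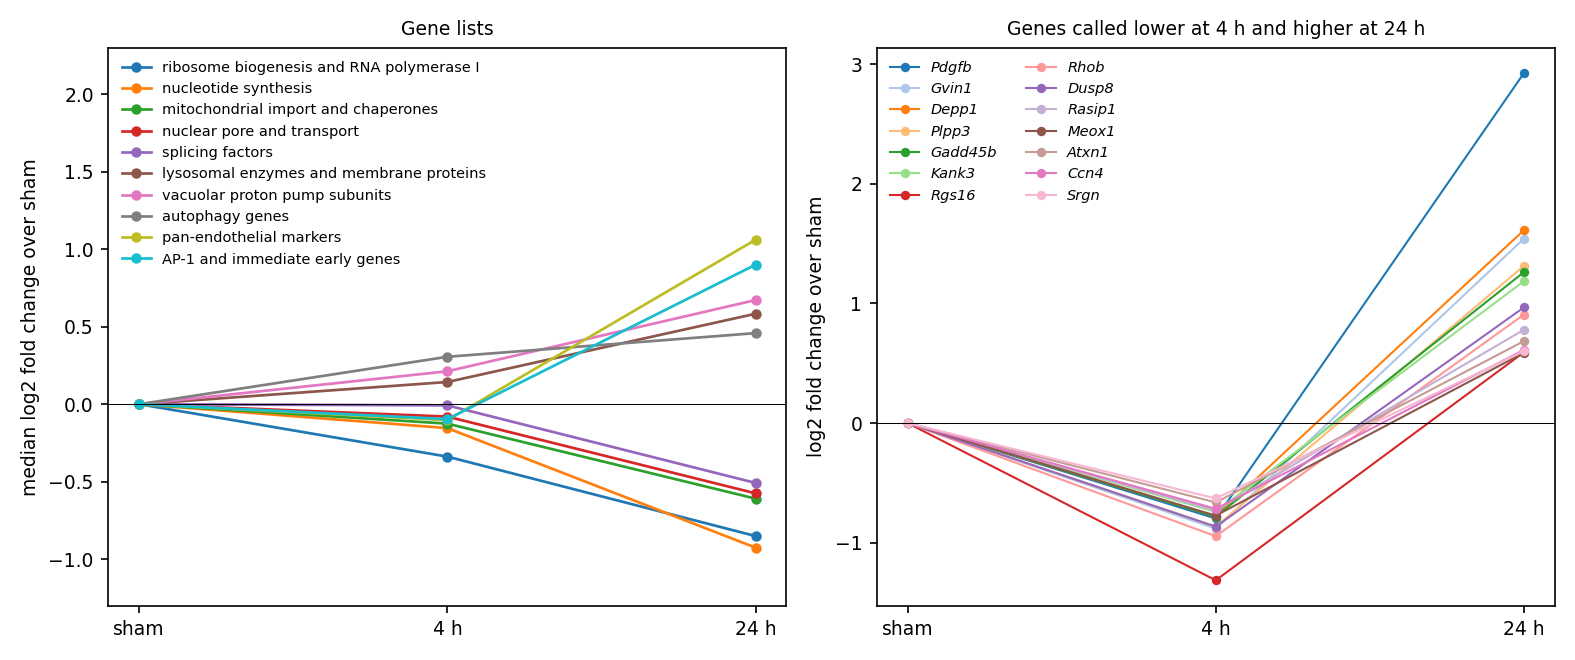
Log2 fold change over sham at 4 h and 24 h, with sham at 0, for the medians of 10 gene lists (left) and for the 14 genes called lower at 4 h and higher at 24 h (right), each line 1 list or gene. Medians of ribosome biogenesis and nucleotide synthesis lie below 0 at both times, lysosomal and proton pump medians lie above 0, and the endothelial median (-0.10 at 4 h, 1.06 at 24 h) lies near sham at 4 h and above it at 24 h.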

How the data were processed

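RNA of 3 biological replicates per condition was pooled by the authors, amplified, biotin-labelled and hybridized to Illumina bead arrays, and imaged on an iSCAN scanner. The study's methods then filtered intensities by call quality in GeneSpring, while the software that wrote the deposited table is not given in the sources used here. Each deposited intensity, averaged over the beads of a probe, was raw, and its bead errors and bead numbers were also deposited. The deposited detection p-value is the share of negative controls at or above the probe. A table normalized by the authors scales each array's intensity to an equal mean, and it was used as an alternative only, as was the series' value table of the same values. All columns were mapped to a sample.

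Intensities were background-corrected with normexp by detection p-values, quantile normalized and put on a log2 scale with neqc (limma 3.58.1, R 4.3.3, offset 16). All 9 arrays entered 1 linear model with 3 groups (lmFit, eBayes), with Benjamini-Hochberg adjustment over the 11487 tested probes, of which 653 carry no gene name. Of all 25697 probes, 23978 carry 1 name in the platform annotation and 1719 none. In 2127 genes several probes were tested and the brightest was used. Where no array of a group detected a probe, its fold is a lower bound. It was computed on the background-corrected scale against the lowest signal of detected probes on each array. Sums of marker signals are of intensities that were not background-corrected. The model was tested on simulated data.

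Named genes were the 25 largest rises and falls, the 4 members of each of 76 gene lists with the largest change among those called, the 12 moderate changes of smallest adjusted p, the 12 brightest called genes and the 12 largest bounds in each direction. Other genes were named after their values were seen. Some items are not reported here. The comparison, the lists and the tests were chosen with earlier results of these data known. Alternatives were no background correction, median centring, the authors' table, scaling on the 75th percentile, other detection filters, the mean of a gene's probes, an unmoderated linear model, these 6 arrays alone, a replicate or BeadChip block and leaving out each array. Arrays of equal replicate number did not deviate together (r from -0.02 to 0.02 over genes for all pairs of a 24 h and a sham array), and the number was not used for pairing. The precision is limited by 3 arrays per group.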

Additional observations from a re-analysis of the deposited data

Results flagged for a closer look

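In 14 genes the level was below sham at 4 h and above sham at 24 h, with both differences called, which fixes that 24 h and 4 h differ. The value given first for each is the log2 difference of 24 h minus 4 h, followed by the log2 fold changes over sham at 4 h and at 24 h, which share the sham arrays. Growth factor and vessel genes were among them: Pdgfb, a growth factor that recruits mural cells, had 3.72 (-0.80 and 2.93), Plpp3, a lipid phosphatase of endothelium, had 2.18 (-0.87 and 1.31), and Rasip1, which is needed for vessel lumens, had 1.51 (-0.73 and 0.78). Signalling regulators made up a second group. Rgs16 had 1.91 (-1.31 and 0.59), the phosphatase Dusp8 had 1.83 (-0.87 and 0.97), the GTPase Rhob had 1.85 (-0.95 and 0.91), the stress gene Gadd45b had 2.04 (-0.78 and 1.26) and Ccn4, a secreted target of Wnt signals, had 1.33 (-0.72 and 0.61). Of the others, Depp1, a target of FOXO factors, had 2.39 (-0.78 and 1.61), the interferon-inducible Gvin1 had 2.42 (-0.88 and 1.54), the cytoskeletal gene Kank3 had 1.93 (-0.74 and 1.19), the homeobox factor Meox1 had 1.36 (-0.77 and 0.59), Atxn1 had 1.35 (-0.66 and 0.69) and the proteoglycan core Srgn had 1.23 (-0.63 and 0.60). All 14 were detected on every array of the 3 groups. Without background correction the rise over sham at 24 h fell short of 1.5-fold in Rgs16 (0.49), Rasip1 (0.51), Meox1 (0.31), Atxn1 (0.41), Ccn4 (0.54, and -0.02 at its other probe) and Srgn (0.28), as log2 fold changes. The opposite course, above sham at 4 h and below it at 24 h, was called in 0 genes.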

How the results depend on the processing

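The counts of 24 h against sham depended most on background correction and scaling. Without background correction 614 genes were higher and 452 lower at 1.5-fold, and 223 and 89 at 2-fold, and against 4 h 461 were higher and 280 lower. With the authors' normalized table floored at 16, 743 were higher and 388 lower at 1.5-fold, and 247 and 70 at 2-fold. With scaling on the 75th percentile without background correction, 509 were higher and 700 lower at 1.5-fold, and 179 were higher at 2-fold. The other settings gave 1016 to 1142 higher and 873 to 903 lower genes, save for 935 and 844 of 7111 genes with detection required on all 6 arrays. Leaving out 1 array gave 1067 to 1089 higher and 869 to 909 lower genes at 1.5-fold, 439 to 456 and 208 to 220 at 2-fold, and 834 to 853 and 594 to 615 against 4 h. With replicate number as a block, 1084 were higher and 879 lower, and the block changed no call among the named genes. Array 3 at 24 h lay alone on its BeadChip, and on the other BeadChip position and group cannot be told apart. Of 332 named genes 0 changed direction under any setting, while the call was lost in 51 without background correction, in 52 with the authors' table and in 66 with the 75th percentile. Leaving out 1 array or another changed the call of 18, and with each sham array left out 1 gene gained a call. For the lists, the number of mitochondrial ribosomal proteins called lower was 20 with median centring against 13, that of class I genes called higher was 2 with the 75th percentile against 8, and that of semaphorin and ephrin genes called lower was 1 without background correction against 5. With the 75th percentile, 11 translation factors were called lower against 7, and 3 Rab and vesicle genes against 5, 2 matrix proteases against 6 and 2 hypoxia genes against 5 were called higher. With the authors' table, 7 nuclear transport genes against 12, 8 mitotic genes against 13 and 1 caveolar gene against 5 were called lower. The cause of these shifts was not tested. Dim probes limit the folds, since a probe near background can show no fall.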

Other observations

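Further groups showed smaller or divided changes between 24 h of propranolol and sham. Of 15 tested genes of the hypoxia response 5 rose and 0 fell, with log2 fold changes of 1.47 for Ndrg1, 0.87 for the histone demethylase Kdm3a and 0.71 for the oxygen sensor Egln3, but the median of the list was 0.11, and Hif1a had 0.62 (0.50 without background correction). Of 26 genes of Ras and MAPK signalling 6 rose and 2 fell. The Ras activator Rasgrp3 had 1.67, and phosphatases that turn MAP kinases off went both ways, with Dusp1 at 1.41, Dusp16 at 0.85 and Dusp14 at -1.44.

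Secreted proteases were also divided, with 6 of 20 matrix proteases and inhibitors higher and 3 lower. Adamts4, which cuts proteoglycans, had 2.03 and Mmp11 had 1.07, while Mmp3 had -1.0 and Adam19 had -0.78. Of 19 tubulin genes 2 fell, Tubb6 at -1.0 and Tubb4b at -0.65, and 0 rose, a share close to that of all genes that fell (11.2%). Peroxisomal genes did not move together: 4 of 16 rose, led by catalase (Cat) at 1.43, and 3 fell, none of them without background correction. In the Wnt pathway Wnt7b had the lowest log2 fold change among genes detected on all 6 arrays, at -2.51 (limma adjusted p = 7.0e-09). Its other probe gave -2.01. The Wnt inhibitor Apcdd1 had -2.04, while Ctnnb1, which encodes beta-catenin, had 0.93 and 0.55 at its other probe.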
